A study of Mus musculus with 15 samples.

Results

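The genes described here encode enzymes that write and erase marks on chromatin: histone demethylases, histone deacetylases and sirtuins, SET-domain methyltransferases, the core of Polycomb repressive complex 2 (PRC2) and the enzymes that methylate and oxidise DNA. They were chosen by a rule on symbols that uses no level. The rule takes the Kdm genes analysed here, and Ezh1, Ezh2, Eed, Suz12, Ehmt1, Ehmt2 and Uhrf1. It also takes the symbols of the RNA-seq table in which a number directly follows Hdac, Sirt, Setd, Dnmt or Tet, which leaves out Setdb1 and Setdb2. It found 55 of 27697 gene symbols, in 17 classes, and each stood on a single row. The measurements are 3 RNA-seq libraries of preSertoli cells, the fetal testis cells that surround the germ cells, at the embryonic stage E15.5. The cells came from C57BL/6J x CD-1 F1 embryos and were purified by flow cytometry, and about 165 embryos supplied the 3 pools. The RNA-seq labels name no allele, transgene or treatment, whereas the DNase-seq labels of the same study name a Sox9-ECFP reporter. Every library is a pool of many animals, the study holds no other RNA group, and no test between groups was therefore possible. The series also holds 8 DNase-seq, 2 H3K27ac and 2 input libraries, which are not used here because their regions carry no gene names.

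Histone tails are switched between states by opposing enzymes. Methyltransferases place methyl groups on lysines, of which H3K4 methylation is known for active promoters and H3K27 and H3K9 methylation for repression, and demethylases remove them. Deacetylases take acetyl groups from histones and many other proteins. DNA methylation is placed on CG dinucleotides by Dnmt enzymes and oxidised by Tet enzymes. In the fetal testis the germ cells are known for rebuilding DNA methylation before birth, while Sertoli cells are the dividing somatic cells around them.

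The libraries, numbered 1, 2 and 3 as in the table, held 47.8, 56.0 and 51.7 expected counts in units of 1000000. Levels are given in CPM, the counts of a gene per 1000000 counts of its library. CPM is not divided by transcript length and no lengths were at hand, so values of different genes stand side by side and are not ranked as amounts of transcript. Of the markers of the labelled cell type, Sertoli cells, 9 of 9 were expressed, among them Sox9 at 278, 283 and 217 CPM and Dmrt1 at 126, 127 and 128 CPM. Of 6 fetal Leydig cell markers 6 were expressed as well, with a summed level of 1695, 2014 and 1228 CPM. Interstitial and fibroblast markers were expressed in 5 of 5 matched cases and summed to 481, 579.5 and 317 CPM. Summed germ cell markers stood at 133, 107 and 116 CPM with 11 of 14 expressed, and Nanos2, Nanos3 and Rhox6 were under the threshold of expression. Endothelial markers summed to 30.0 to 31.6 CPM (3 of 6 expressed), blood and macrophage markers to 3.19 to 4.27 CPM (1 of 4 matched) and granulosa markers to 2.44 to 4.14 CPM (2 of 4). In such bulk samples fewer cells of a type and less RNA per cell cannot be told apart.

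Nearly the whole set was expressed. With expression called at 1 CPM or more in all 3 libraries, 54 of 55 genes were expressed, beside 47.1% of all 27697 symbols. A mean of 10 CPM was reached by 46 of the genes, beside 35.4% of all symbols, and a mean of 100 CPM by 23, beside 9.17%. Among expressed symbols alone the shares were 85.2% of the members beside 75.3% at 10 CPM, and 42.6% beside 19.5% at 100 CPM. The median over the 55 genes was 66.8 ± 0.825 CPM (SD, n = 3 libraries, as for all values that follow), beside 32.7 ± 0.112 CPM over the 13036 expressed symbols and 0.707 ± 0.0280 CPM over all symbols. CPM is not divided by transcript length, and the part of length in these shares and medians was not tested.

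**Figure D1:**
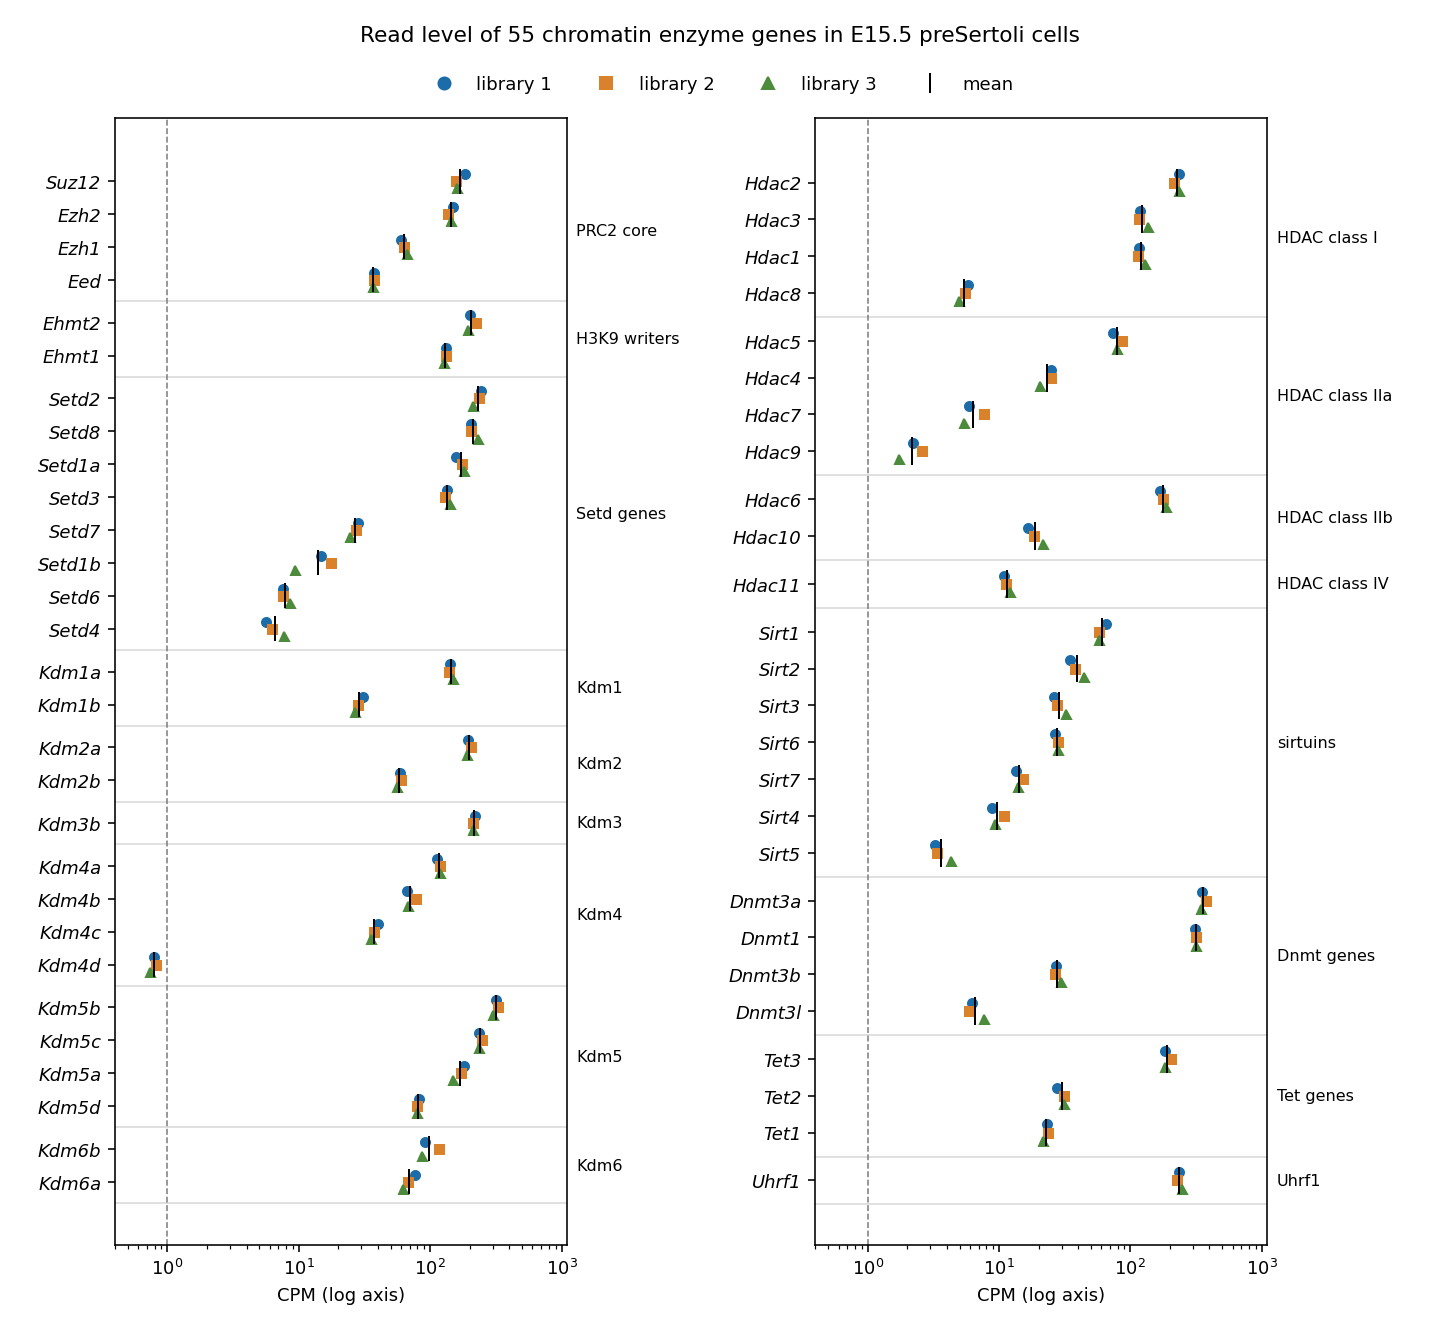
Read level in CPM (horizontal log axis) of the 55 genes by class; circles, squares and triangles are libraries 1, 2 and 3, the black tick is their mean and the dashed line marks 1 CPM. Kdm4d at 0.784 CPM lies to the left of the line and the other 54 genes to its right, and in most classes the genes lie farther apart than their libraries.

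PRC2, which methylates H3K27, needs a catalytic subunit, Ezh2 or Ezh1, together with Eed and Suz12, and all 4 were expressed. Ezh2 stood at 148, 136 and 145 CPM in libraries 1, 2 and 3, and Ezh1, its paralogue known for tissues that divide little, at 60.3, 62.9 and 66.7 CPM. Suz12, the scaffold subunit, stood at 185, 157 and 161 CPM. Eed, which binds the methylated tail, stood at 37.3, 37.4 and 36.4 CPM. Library 1 was highest for Ezh2 and Suz12 and lowest for Ezh1. The spread was widest for Suz12, with a coefficient of variation (CV, SD over mean) of 9.13%, and narrowest for Eed at 1.47%, which is below the 2.28% that counting error alone gives at its depth.

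Ehmt1 and Ehmt2, the partners of the complex that places H3K9 mono- and dimethylation, were both expressed. Ehmt2 (G9a) stood at 199, 221 and 194 CPM and Ehmt1 (GLP) at 131, 131 and 127 CPM. Library 2 was highest and library 3 lowest for both, but for Ehmt1 libraries 1 and 2 lay within its counting error (CV of 1.22%). The CV was 7.13% for Ehmt2 and 1.64% for Ehmt1.

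All 8 Setd genes were expressed, and 4 of them passed a mean of 100 CPM. Setd2, the H3K36 trimethylase, stood at 244, 237 and 212 CPM. Setd8, which monomethylates H4K20 and acts in the cell cycle, stood at 203, 204 and 231 CPM. Setd3, an actin histidine methyltransferase despite its family name, had a mean of 135 ± 5.77 CPM.

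Setd1a and Setd1b are the alternative catalytic subunits of a complex that methylates H3K4. Setd1a stood at 157, 176 and 181 CPM and was highest in library 3. Setd1b stood at 14.9, 17.5 and 9.40 CPM and was lowest in library 3, with a log2 ratio of library 3 to the mean of the others of -0.78. Its CV of 29.6% was the widest of the 55 genes, while counting error at its depth comes to 3.71%. Setd7, which methylates many proteins besides histones, had a mean of 26.7 ± 1.95 CPM. Setd6, an enzyme of the NF-kB subunit RelA, stood at 7.52, 7.61 and 8.60 CPM. Setd4 stood at 5.59, 6.30 and 7.73 CPM and was highest in library 3.

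The Kdm genes erase what these enzymes place, and 14 of 15 were expressed. Kdm1a (LSD1), an amine oxidase that removes H3K4 mono- and dimethylation, stood at 143, 139 and 150 CPM, and its paralogue Kdm1b at 30.5, 28.0 and 26.9 CPM. The remaining Kdm enzymes use a Jumonji domain, iron and 2-oxoglutarate. Kdm2a, an H3K36 demethylase that binds unmethylated CG-rich DNA, stood at 195, 205 and 192 CPM, and Kdm2b, which also recruits Polycomb repressive complex 1, at 59.0, 59.6 and 56.0 CPM. Kdm3b, an H3K9 demethylase, stood at 218, 212 and 213 CPM with a CV of 1.49%.

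The Kdm4 enzymes Kdm4a, Kdm4b and Kdm4c act on H3K9 and H3K36 trimethylation. Kdm4a stood at 112, 119 and 118 CPM, Kdm4b at 66.1, 77.8 and 67.7 CPM and Kdm4c at 39.8, 37.2 and 35.3 CPM. Kdm4d, a shorter paralogue without the chromatin-reading domains of the others, was the single gene of the set below the threshold, at 0.796, 0.821 and 0.735 CPM. These values rest on 38.0, 46.0 and 38.0 reads, and the CV of 5.68% is below the 15.7% of counting error, so the libraries cannot be told apart at this depth.

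All 4 Kdm5 genes, the H3K4 trimethyl demethylases, were expressed. Kdm5b stood at 319, 331 and 303 CPM and Kdm5a at 181, 172 and 150 CPM, both lowest in library 3. Kdm5c and Kdm5d are an X and Y pair. Kdm5c, on the X chromosome, stood at 237, 248 and 234 CPM, and Kdm5d, on the Y, at 81.8, 79.5 and 79.8 CPM. The ranges over the libraries do not overlap, but lengths are not accounted for, and reads from such similar copies may be split between them in the authors' counting. Kdm6a, an X-linked H3K27 demethylase, stood at 76.4, 67.8 and 62.5 CPM, and Uty, its Y-linked relative outside the rule, at 52.6, 47.7 and 44.1 CPM. The 3 libraries fell in the same order for Kdm6a and Uty, with library 1 highest. Kdm6b, the autosomal and inducible H3K27 demethylase, stood at 91.5, 117 and 86.7 CPM with library 2 highest, and its CV of 16.6% was the widest of the Kdm genes.

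All 11 classical deacetylases were expressed, with means from 2.18 CPM (Hdac9) to 228 CPM (Hdac2). The class I enzymes Hdac1, Hdac2 and Hdac3 are the catalytic core of nuclear corepressor complexes. Hdac2 stood at 234, 215 and 234 CPM and Hdac1 at 116, 114 and 130.0 CPM. Hdac3 stood at 117, 117 and 136 CPM. Library 3 was highest for Hdac1 and Hdac3, outside the range of the other libraries. Hdac8, the class I enzyme that acts on cohesin, stood at 5.84, 5.46 and 4.93 CPM with library 3 lowest.

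Class IIa deacetylases, which shuttle between cytoplasm and nucleus and have little activity of their own, were all expressed, and 2 of 4 passed a mean of 10 CPM. Hdac5 stood at 74.1, 85.7 and 78.7 CPM and Hdac4 at 24.7, 24.7 and 20.5 CPM. Hdac7 stood at 5.88, 7.62 and 5.37 CPM and Hdac9 at 2.20, 2.59 and 1.74 CPM. Library 3 lay below the mean of the others for 4 of 4, beside 52.6% of expressed symbols, with log2 ratios of -0.27 for Hdac4, -0.33 for Hdac7 and -0.46 for Hdac9. For Hdac5 the ratio was -0.02, within its counting error (CV of 1.55%). The class IIb enzyme Hdac6, a tubulin deacetylase, stood at 167, 176 and 188 CPM, and Hdac10, a polyamine deacetylase, at 16.7, 18.4 and 21.6 CPM. Hdac11, the class IV enzyme, stood at 11.0, 11.3 and 12.2 CPM. These last 3 genes shared the order of library 3 above 2 above 1, although libraries 1 and 2 of Hdac11 lay within its counting error (CV of 4.10%).

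All 7 sirtuins, the NAD-dependent deacylases, were expressed, none of them reached a mean of 100 CPM, and 5 reached 10 CPM. Sirt1, a nuclear deacetylase, stood at 65.7, 58.1 and 58.1 CPM, and Sirt2, which acts mainly in the cytoplasm, at 34.8, 38.1 and 44.4 CPM. Sirt6, a chromatin enzyme, and the nucleolar Sirt7 had means of 27.6 ± 0.935 CPM and 14.2 ± 0.954 CPM. The mitochondrial members were Sirt3 at 26.4, 27.5 and 32.6 CPM, Sirt4 at 8.77, 11.0 and 9.24 CPM and Sirt5, a desuccinylase, at 3.24, 3.37 and 4.31 CPM. Sirt2, Sirt3, Sirt5 and Sirt6 were highest in library 3 (log2 ratio of 0.28, 0.27, 0.38 and 0.05). For Sirt6 libraries 2 and 3 (28.0 and 28.3 CPM) lay within its counting error (CV of 2.64%). Sirt1 was highest in library 1, and Sirt4 and Sirt7 in library 2.

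The DNA methylation genes were expressed in 8 of 8 cases. Dnmt1, which copies methylation onto the new strand at replication, stood at 312, 318 and 318 CPM, and its CV of 1.16% was the narrowest of the 55 genes. Uhrf1, which brings Dnmt1 to hemimethylated DNA, stood at 234, 227 and 247 CPM. Summed markers of cell division, 10 of 10 expressed, stood at 2522, 2439 and 2557 CPM, the same library order as Uhrf1. Singly these markers were mixed, with library 3 above the mean of libraries 1 and 2 in 6 and below it in 4. Mki67 was highest in library 2 and Top2a in library 1. The part of cell division in the differences of Uhrf1 was not tested.

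Of the de novo enzymes, Dnmt3a stood at 354, 374 and 343 CPM and Dnmt3b at 27.0, 26.6 and 29.4 CPM. Dnmt3l, the cofactor without catalytic activity that is known for male germ cells before birth, stood at 6.18, 5.93 and 7.71 CPM. It was highest in library 3. The germ cell markers summed to most in library 1 (133 CPM, against 107 in library 2 and 116 in library 3). Taken singly they were mixed, with 7 above and 6 below the mean of libraries 1 and 2 in library 3. Piwil2 gave the largest part of that sum, at 40.2, 35.4 and 38.8 CPM, and Ddx4 stood at 15.2, 10.1 and 11.5 CPM. The part of germ cell RNA in the level of Dnmt3l was not tested.

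Tet enzymes oxidise methylated cytosine and all 3 were expressed. Tet3 stood at 185, 204 and 185 CPM with library 2 highest. Tet2 stood at 27.7, 31.0 and 31.3 CPM with library 1 lowest. Tet1, known for ES cells and germ cells, stood at 23.2, 23.4 and 21.4 CPM with library 3 lowest.

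Most genes of the set varied little between the pools. The median CV was 6.70% over the 55 genes, from 1.16% to 29.6%, beside 6.75% over expressed symbols and 6.01% over symbols of 10 CPM or more. Spread went with level. Genes with a mean of 100 CPM or more had a median CV of 4.47%, beside 5.60% over all such symbols, and the 13 genes under 20 CPM, Kdm4d included, had 13.3%, beside 9.70% over expressed symbols of that level. In 9 of 54 expressed genes the highest library was at least 1.25 times the lowest, beside 19.6% of expressed symbols, and at 10 CPM or more in 4 of 46, beside 10.6%. The 9 were Setd1b, Setd4, Kdm6b, Hdac7, Hdac9, Hdac10, Sirt2, Sirt5 and Dnmt3l. Without library 3 the count was 2, Hdac7 and Kdm6b, beside 7.46% of expressed symbols. Without library 1 or library 2 it was 6, beside 11.9% and 12.0%.

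**Figure D2:**
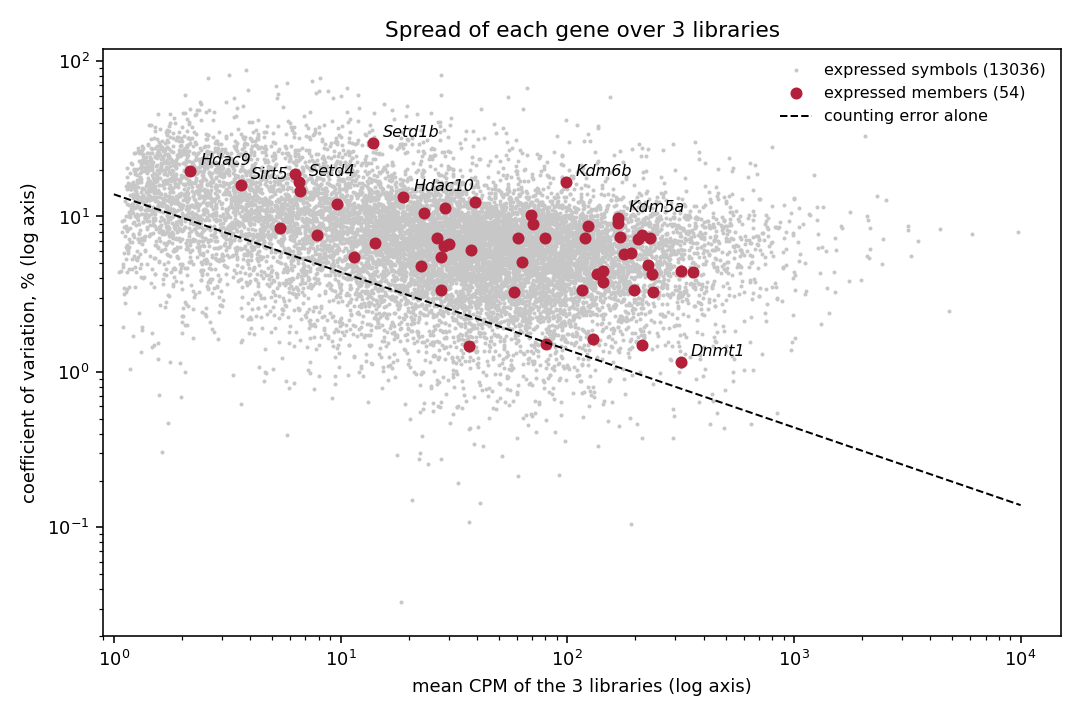
Coefficient of variation over the 3 libraries (vertical log axis, percent) against mean CPM (horizontal log axis) for the 13036 expressed symbols (grey) and the 54 expressed genes of the set (red); the dashed line is the spread that counting error alone would give. The red points lie within the grey cloud, from Dnmt1 at 1.16% to Setd1b at 29.6%, and most lie above the line.

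Library 3 lay below the mean of libraries 1 and 2 in 30 of 54 expressed genes, beside 52.6% of expressed symbols, and above it in 24, beside 47.4%. Library 1 was the highest of the 3 in 14 genes, library 2 in 20 and library 3 in 20, beside 34.6%, 30.2% and 35.1% of expressed symbols. By family, a description with no test, the Kdm genes were below in 13 of 15 cases, with Kdm4d included, and Kdm1a and Kdm4a were above. Of the 13, Kdm4d (log2 ratio of -0.14) and Kdm5d (-0.015) lay within their counting error (CV of 15.7% and 1.55%). Kdm3b (-0.015) was close to its own (0.949%). The Hdac genes were below in 5 of 11, the Setd genes in 3 of 8, the PRC2 and Ehmt genes in 4 of 6, the sirtuins in 3 of 7 and the DNA methylation genes in 3 of 8. The log2 ratios ran from -0.78 (Setd1b) to 0.38 (Sirt5) with a median of -0.04 over the 55 genes, beside -0.01 over expressed symbols. With 3 libraries of a single group these values describe pools and are no comparison of conditions.

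**Figure D3:**
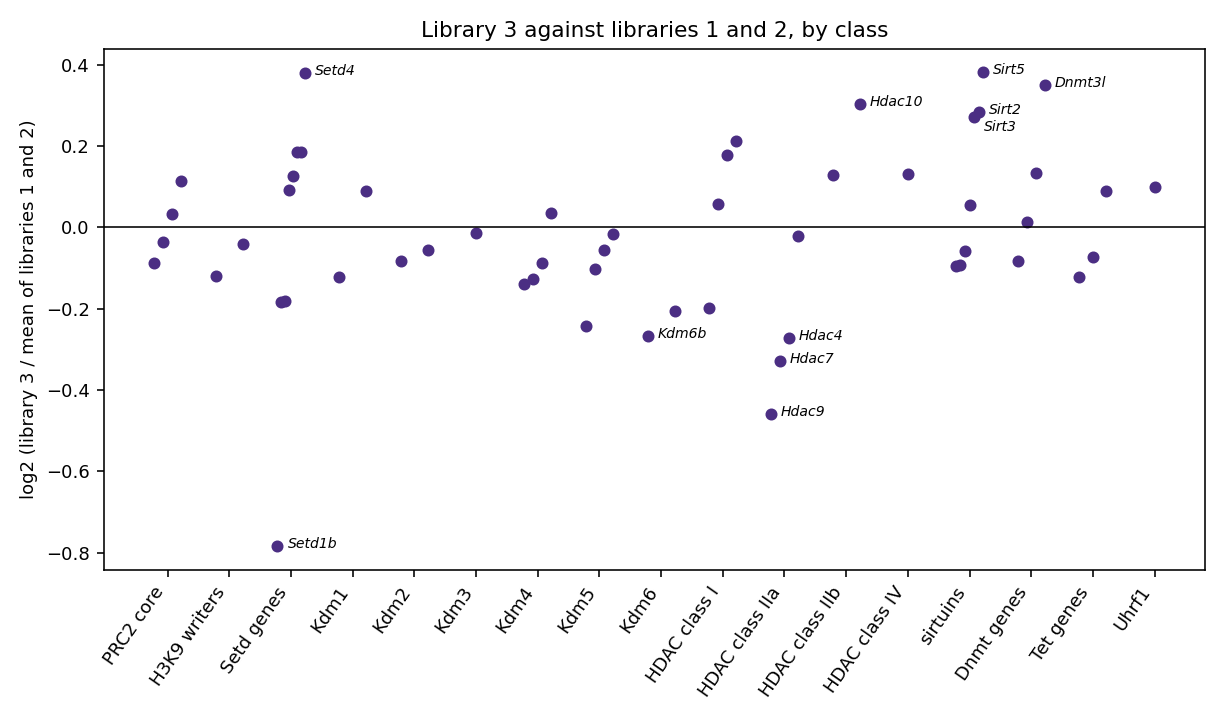
Log2 ratio of CPM in library 3 to the mean of libraries 1 and 2 (vertical axis) for each of the 55 genes, by class along the horizontal axis; a point is a gene and the line marks equal levels. The 4 class IIa deacetylases and the 4 Kdm5 genes lie below the line, and Setd1b at -0.78 and Sirt5 at 0.38 are the extremes.

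Other features of the pools shared some of these orders. Library 2 was highest and library 3 lowest in 13 expressed genes (Dnmt3a, Eed, Ehmt1, Ehmt2, Hdac7, Hdac9, Kdm2a, Kdm2b, Kdm5b, Kdm5c, Kdm6b, Setd1b and Tet1), or 24.1%, beside 18.9% of expressed symbols. Some orders rest on differences below counting error, as between libraries 1 and 2 for Eed (37.3 and 37.4 CPM, counting error of 2.28%). The markers of fetal Leydig cells had that order in 6 of 6 cases and those of interstitial cells and fibroblasts in 5 of 5 (summed level of 481, 579.5 and 317 CPM). The Sertoli markers had it in 5 of 9 cases (Sox9, Amh, Dhh, Sox8 and Cyp26b1), with Dmrt1, Gata4 and Fshr highest in library 3 and Wt1 highest in library 1. Their sum had the order too (4656, 5222 and 3700 CPM), of which Amh supplied 2167, 2660.0 and 1319 CPM. The reverse end, library 3 above 2 above 1, held another 13 genes (Ezh1, Hdac6, Hdac10, Hdac11, Setd1a, Setd4, Setd6, Setd8, Sirt2, Sirt3, Sirt5, Sirt6 and Tet2), or 24.1%, beside 18.7% of expressed symbols. Here too libraries 1 and 2 can lie within counting error, as for Setd8 (203 and 204 CPM, counting error of 0.952%). Summed ribosomal protein genes had this order too, at 31743, 32797 and 36336 CPM. The part of cell mixture or RNA quality in the members' differences was not tested.

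Some values may include reads of a neighbour. In the RefSeq gene table of GRCm38, 28 of the 55 genes (50.9%) overlap another annotated gene and 10 (18.2%) overlap a protein-coding one, beside 47.4% and 20.7% of the 12227 expressed symbols found there. The labels name a poly-A kit that does not mark strand, so reads from stretches that both genes share cannot be told apart by strand. Overlap was taken over whole genes, and whether exons overlap was not tested. Setd6 overlaps Cnot1 (604 CPM), Kdm1b overlaps Dek (230 CPM), Setd3 overlaps Ccnk (56.1 CPM), Kdm5a overlaps Ccdc77 (38.9 CPM) and Kdm1a overlaps Luzp1 (31.4 CPM). Hdac7 overlaps Slc48a1 (14.4 CPM), and Dnmt3l overlaps Aire (0.0894 CPM). The others are Kdm2a, Kdm5b and Sirt3.

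The starts of these genes were mostly rich in CG, the dinucleotide on which the Dnmt and Tet enzymes act. RefSeq windows of 300 bases (250 before an annotated start and 50 from it, build GRCm38.p6) were found for 46 of the 55 genes, 67 windows in all. The median window held 22 CG dinucleotides, beside 7 over all 32851 windows and 20 over windows of expressed symbols. At least 10 were present in 83.6% of the member windows, beside 43.5% of all windows and 79.5% of those of expressed symbols, so the share was near that of expressed genes. The range ran from 0, in windows of Hdac9 and Kdm4c, to 57 in that of Tet2. The CG-richest window of a gene held a median of 33.5 CG in the 18 matched genes of 100 CPM or more, 23 in the 17 from 20 to 100 CPM and 17 in the 11 below 20 CPM. Expressed symbols of these levels had medians of 26, 23 and 18. Fewer than 10 CG in every window were found for Dnmt3l, Hdac8 and Hdac9, all 3 below 20 CPM, where 25.1% of expressed symbols have so few.

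The 250 bases before the start are printed here, 5′ to 3′ in the direction of the gene, with each CG in capitals, for 2 DNA methylation genes with CG-rich starts, for Kdm4d, the gene under the threshold, and for the 3 genes with fewer than 10 CG in every window. Tet2 (chr3:133544391-133544640, minus strand) holds 51 CG and Dnmt3a, at its second listed start (chr12:3806910-3807159, plus strand), holds 40. Kdm4d (chr9:14500483-14500732, minus strand) holds 14, although it was not expressed. Hdac8 (chrX:102505159-102505408, minus strand), Dnmt3l at its first listed start (chr10:78042037-78042286, plus strand) and Hdac9 at its first (chr12:34917096-34917345, minus strand) hold 6, 5 and 0.
Tet2: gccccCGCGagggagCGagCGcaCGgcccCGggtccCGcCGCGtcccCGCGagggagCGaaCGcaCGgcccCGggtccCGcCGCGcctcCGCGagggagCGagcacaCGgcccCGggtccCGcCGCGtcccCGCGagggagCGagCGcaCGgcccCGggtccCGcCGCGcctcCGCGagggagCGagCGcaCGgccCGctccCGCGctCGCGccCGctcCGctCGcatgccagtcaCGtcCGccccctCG
Dnmt3a: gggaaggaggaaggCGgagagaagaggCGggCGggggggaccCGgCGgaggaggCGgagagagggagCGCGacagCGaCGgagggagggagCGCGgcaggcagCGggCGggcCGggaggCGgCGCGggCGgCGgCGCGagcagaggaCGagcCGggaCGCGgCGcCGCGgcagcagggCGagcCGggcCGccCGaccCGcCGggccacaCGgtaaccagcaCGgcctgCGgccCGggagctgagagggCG
Kdm4d: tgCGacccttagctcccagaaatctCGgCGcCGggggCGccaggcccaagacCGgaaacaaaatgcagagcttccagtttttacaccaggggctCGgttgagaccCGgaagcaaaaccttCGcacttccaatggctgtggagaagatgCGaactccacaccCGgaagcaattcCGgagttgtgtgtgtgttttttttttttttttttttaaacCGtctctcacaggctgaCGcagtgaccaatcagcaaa
Hdac8: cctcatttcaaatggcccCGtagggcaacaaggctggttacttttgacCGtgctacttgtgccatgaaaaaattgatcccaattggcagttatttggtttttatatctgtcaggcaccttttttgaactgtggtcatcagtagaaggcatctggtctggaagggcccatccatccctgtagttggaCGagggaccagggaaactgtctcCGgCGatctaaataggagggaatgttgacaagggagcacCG
Dnmt3l: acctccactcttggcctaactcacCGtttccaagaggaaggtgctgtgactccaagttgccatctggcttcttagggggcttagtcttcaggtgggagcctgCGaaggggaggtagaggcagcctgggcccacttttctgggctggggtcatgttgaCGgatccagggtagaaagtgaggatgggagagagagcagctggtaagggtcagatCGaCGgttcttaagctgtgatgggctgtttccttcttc
Hdac9: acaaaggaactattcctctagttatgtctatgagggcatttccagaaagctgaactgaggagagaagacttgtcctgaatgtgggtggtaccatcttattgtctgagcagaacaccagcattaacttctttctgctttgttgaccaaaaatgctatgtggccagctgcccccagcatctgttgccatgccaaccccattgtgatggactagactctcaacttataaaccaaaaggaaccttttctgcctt

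**Figure D4:**
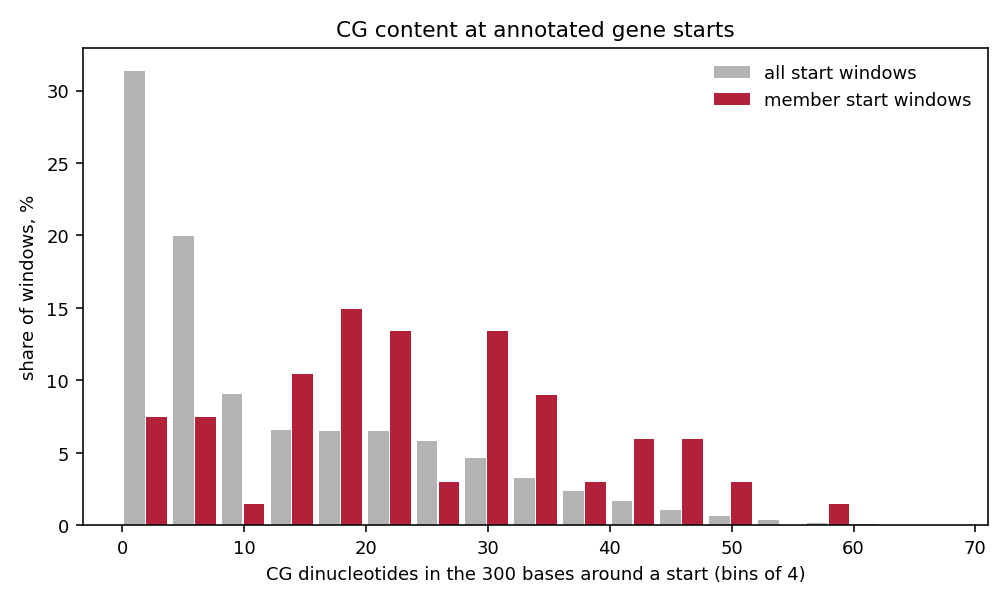
Share of start windows in percent (vertical axis) by number of CG dinucleotides in 300 bases (horizontal axis, bins of 4), for all 32851 RefSeq windows (grey) and the 67 windows of the set (red). The red bars are shifted to the right of the grey ones, with medians of 22 and 7.

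Short motifs were searched on both strands of the same windows. CCAAT was found in 41.8% of the member windows, beside 37.4% of all windows and 37.9% of those of expressed symbols, and GGGCGG in 64.2%, beside 35.7% of all and 63.1% of those of expressed symbols. CCGGAAG stood at 8.96% (8.86% of all, 16.7% of expressed) and TATAAA at 4.48% (13.6% of all, 7.11% of expressed). TTTCCCGC or TTTGGCGC, core letters of sites for the E2F factors of the cell cycle, were found in 4 of 67 windows (5.97%), beside 1.56% of all windows and 2.91% of those of expressed symbols. The 4 matches are shown with up to 10 bases on each side, 5′ to 3′ in the direction of the gene and with the match in capitals, because the letters can be seen at genes described above, Dnmt1, Ezh2, Suz12 and Sirt4. In GRCm38.p6 the stretches are chr9:20952574-20952600 (minus strand, at the third listed start of Dnmt1), chr6:47595010-47595037 (minus strand), chr11:79992877-79992904 (plus strand) and chr5:115484289-115484316 (minus strand). The matches begin 33 and 3 bases after the start base for Dnmt1 and Ezh2, and at -219 and -9 from it for Suz12 and Sirt4. A match is a run of letters and does not show that a factor binds there.
Dnmt1: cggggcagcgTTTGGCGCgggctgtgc
Ezh2: ggttgctgcgTTTGGCGCtcggtccggt
Suz12: gacccctcatTTTCCCGCgaattcagtt
Sirt4: cggctgaaggTTTCCCGCtgagcattct

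The partners of these enzymes were expressed nearly as completely. All counts of expressed genes in the lists below stand beside 47.1% of all 27697 symbols. Of the subunits of deacetylase complexes 25 of 25 matched genes were expressed, with Sin3b at 638, 652 and 680 CPM, the nucleosome remodeller Chd4 at 630, 696 and 635 CPM, and Rcor3 and Sap30 at 14.9 ± 0.441 and 4.89 ± 0.481 CPM. The opposing acetyltransferases were expressed in 10 of 10 cases, from Kat8 (listed as Myst1) at 19.8 ± 0.725 CPM and Kat2b at 41.9 ± 1.39 CPM to Kat6a (listed as Myst3) at 186 ± 4.46 CPM and Ep300 at 197 ± 5.80 CPM. Of the MLL and COMPASS genes, the other H3K4 methylation machinery, 12 of 12 were expressed, among them Kmt2d (listed as Mll2) at 270, 388 and 339 CPM and Kmt2b (listed as Wbp7) at 166, 197 and 168 CPM. Dpy30 and Men1 stood at 35.3 ± 3.33 and 70.1 ± 5.68 CPM.

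Of the PRC2 accessory genes 7 of 8 were expressed. The histone binders Rbbp4 and Rbbp7, which also belong to deacetylase complexes, stood at 505 and 359 CPM, Phf19 at 1.95 ± 0.231 CPM, and Ezhip (listed as AU022751), an inhibitor of PRC2, at 0.733, 0.536 and 0.638 CPM. Of Polycomb repressive complex 1, 17 of 17 matched genes were expressed, from Pcgf5 (5.72 CPM) and Cbx7 (7.05 CPM) to Pcgf3 (117 CPM) and Rybp (310 CPM). Of the H3K9 methylation genes and readers 11 of 11 were expressed, including the corepressor Trim28 at 543 ± 29.3 CPM, the heterochromatin protein Cbx5 at 460 ± 20.7 CPM, Suv39h2 at 27.0 ± 1.72 CPM and Setdb2 at 11.4 ± 0.811 CPM.

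Other lysine methyltransferases were expressed in 12 of 13 cases, with Nsd1 at 297 CPM and Nsd2 (listed as Whsc1) at 228 CPM. Prdm9, known for meiosis, stood at 6.65 CPM and Mecom at 0.939 CPM, under the threshold. Arginine methyltransferases were expressed in 8 of 9, with Prmt1 at 191 CPM, Carm1 at 92.7, 101 and 106 CPM, Prmt9 (listed as Prmt10) at 27.4 CPM and Prmt8, known for brain, at 0.0866 CPM. Other Jumonji proteins were expressed in 14 of 14 matched cases, from Hr (2.12 CPM) and Kdm8 (listed as Jmjd5, 8.02 CPM) to Kdm7a (listed as Jhdm1d, 174 CPM) and Phf8 (252 CPM). Readers and repair factors of DNA methylation were expressed in 18 of 18, with Cxxc5 at 223 ± 31.7 CPM, the remodeller Hells at 130 ± 17.6 CPM, Gadd45b at 14.8 ± 3.71 CPM and Gadd45a at 11.2 ± 0.702 CPM.

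**Figure D5:**
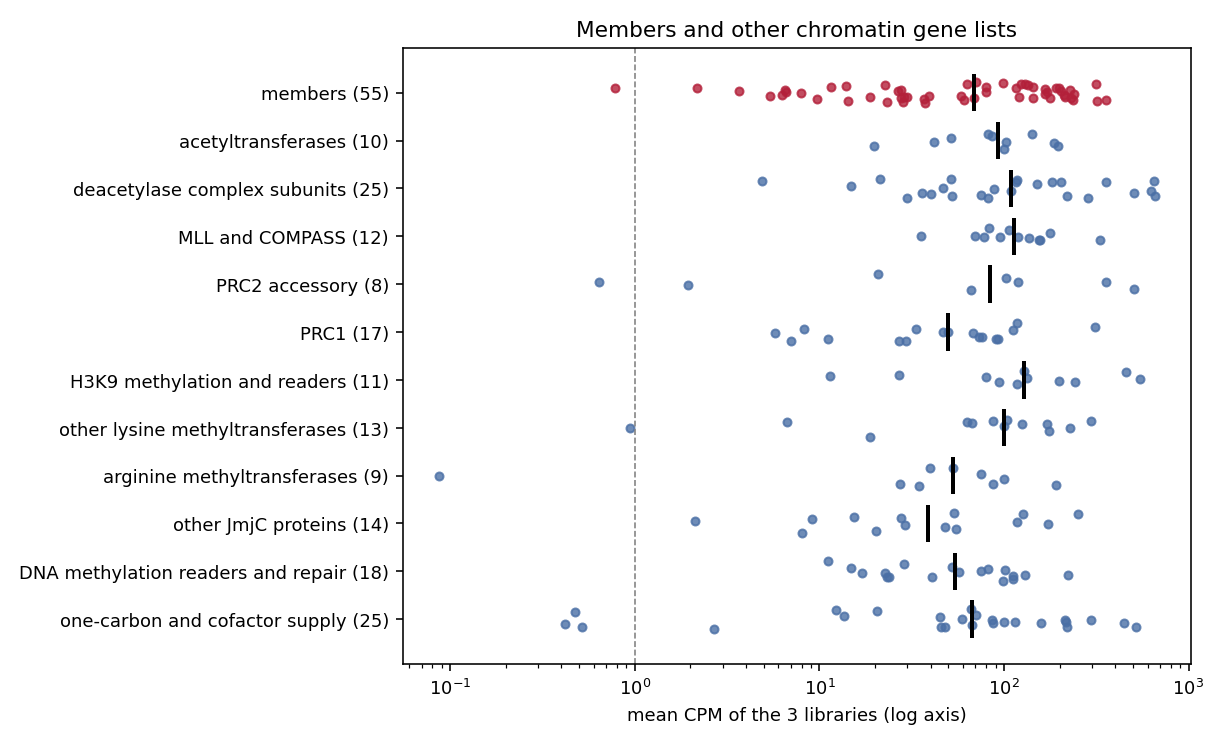
Mean CPM of the 3 libraries (horizontal log axis) for the 55 genes of the set (red) and 11 other lists of chromatin genes and their cofactors (blue); a point is a gene, the number of genes found stands beside each name, the black bar is the list median and the dashed line marks 1 CPM. The list medians lie between 38.6 CPM (other Jumonji proteins) and 129 CPM (H3K9 methylation and readers), with 68.9 CPM, the median of the genes' means, for the set.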

How the data were processed

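RNA-seq came from 3 pools of E15.5 preSertoli cells as poly-A libraries with 50 bp single-end reads, per the labels' protocols. Per the submitters' processing notes, CASAVA 1.8.2, Bowtie 0.12.7, RSEM 1.2.0 and mm9 were used, and the annotation is not given in the sources used here. Per the file headers, the deposited columns hold square roots. Squared values are RSEM's expected counts divided by a 75th percentile set by the authors, and the counts were recovered from their step of 1 hundredth of a read (100% whole, tolerance 0.05 of a step) and divided by library totals to give CPM. The recovery was also run on simulated counts. These were built in hundredths of a read, so the run checked the code and could not test the assumed step. Of 28427 rows, 426 repeat another exactly, and the row of highest mean was kept for each symbol. Library totals were taken over all rows, the repeats included. Column numbers were not tied to single samples. SDs measure the spread between pools, and the counting CV covers Poisson error only. No test was run, since no second RNA group exists.

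The members and lists were chosen with earlier results of these data known. Values in each library were given for the extremes of a class, classes of 4 or fewer and genes under the threshold, and of other lists the 2 highest and lowest, by CPM since lengths were not at hand. Uty, Mat1a, Ahcy, Nampt and the genes overlapping members were named after their values were seen. The members, and the expressed symbols in the overlap counts, were matched to RefSeq tables of GRCm38.p6 through synonyms. For start windows the other symbols were matched as written, without synonyms, which found 8692 of the 13036 expressed symbols. Python 3.11.15, numpy 2.4.6, pandas 2.3.3 and matplotlib 3.10.9 were used. Alternatives were other scalings, thresholds, pseudocounts, handling of repeated symbols and leaving out each library.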

Additional observations from a re-analysis of the deposited data

How the results depend on the processing

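The count of expressed genes was 55, 51 and 45 at thresholds of 0.5, 5 and 10 CPM in place of 1, and 54 under each other alternative run. The other alternatives could hardly change it, since Kdm4d stood at 0.735 to 0.821 CPM and the next lowest, Hdac9, at 1.74 CPM or more. The median level of the members, 6.08 ± 0.0175 as log2(CPM + 1), was 6.14 when library totals left out mitochondrial and ribosomal protein genes (an alternative chosen after seeing the data), 6.06 with a pseudocount of 0.1 and 6.15 over expressed members alone. The number of genes differing at least 1.25 times between libraries ran from 2 to 6 when a library was left out and was 10 under each of 3 other scalings, against 9, and fewer libraries can only lower it. Totals lacking mitochondrial and ribosomal protein genes change a denominator that all genes share, and the 55 levels shifted by a median of 0.053 on the log2 scale. The shift was at most 0.054 and exceeded the SD of 11 genes, those of narrow spread. The other scalings keep the mean library size and could hardly move a mean level, and under them none moved by more than its SD. The members highest in library 3 numbered 21 to 23 under other scalings, against 20. The counts of Kdm, class IIa and sirtuin genes on either side of zero in library 3 were the same under 3 other scalings. A scaling shifts the ratio of every gene by nearly the same amount. It could therefore change these counts only through genes with small ratios, such as Kdm3b, Kdm5d and Hdac5. Levels per length, and open chromatin at the members' starts, were planned and not run, because transcript lengths and mm9 start sites were not at hand. No paired analysis was possible because the RNA libraries form a single group.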

Other observations

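The supply of the cofactors these enzymes use was read from a list of 25 genes. Of these, 22 were expressed, beside 47.1% of all symbols. Their summed level, over all 25, was 2924, 2875 and 2943 CPM in libraries 1, 2 and 3. Mat2a, which makes the methyl donor S-adenosylmethionine outside the liver, stood at 486, 433 and 430 CPM with library 1 highest, whereas the liver form Mat1a stood at 0.565, 0.411 and 0.580 CPM. Ahcy, which clears the product of methylation, stood at 279, 278 and 328 CPM with library 3 highest. Acly, which makes acetyl-CoA from citrate, stood at 512, 536 and 501 CPM. Nampt, the salvage enzyme for the NAD that sirtuins use, stood at 47.7, 43.7 and 44.4 CPM. Nmnat2, an NAD synthase known for neurons, and Nnmt, which methylates nicotinamide, were under the threshold at 0.420 ± 0.154 and 0.473 ± 0.0853 CPM.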
